A study of Mus musculus with 2 samples.

Results

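Irx1, Irx2, Irx3, Irx5, Pou3f3, Foxq1, Prox1 and Hes1 are 8 genes for transcription regulators of the kidney tubule, taken by name from the 32227 genes of the count matrices. They were read across 4 classes of thick ascending limb (TAL) nuclei in mice, from 1 library of dissected kidney cortex and 1 library of dissected medulla. In the cortex Irx1 and Irx2 were highest in macula densa and α nuclei, and Irx3, Irx5 and Foxq1 in β nuclei, with Irx3 as high in γ nuclei. Irx3 in cortical β and γ nuclei was not told apart from background. Prox1 was 5.54 times higher in medullary than in cortical α nuclei and 2.74 times higher in β nuclei. Among β nuclei scored as cortical it was alike, at 23.3 CPM in the medulla library and 24.5 CPM in the cortex library. Markers did not separate the cortical γ class, so its values describe the gate only. Hes1 was highest in α nuclei, and Pou3f3 had 0 counts in every nucleus.

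Both libraries came from the kidney of male B6 mice labelled WT in genotype and 12 in age, with no unit given. All of these mice carried the Slc12a1-CreERT2 driver and the CAG-Sun1-sfGFP nuclear tag (NKCC2-INTACT) and received tamoxifen, and nuclei were sorted for GFP. The driver follows Slc12a1, the gene of the apical sodium-potassium-chloride cotransporter NKCC2, so the tag marks TAL and macula densa nuclei. The dissected cortex was a superficial strip and the medulla was the remaining tissue, which includes deep cortex. How many animals went into a library was not given in the sources used here. With 1 library per region there is no replicate, and region and library cannot be told apart, so no test was run. Values are the summed counts of a class divided by its total, in CPM, with 95% intervals that cover counting error only and treat counts as independent.

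Iroquois factors are homeodomain proteins encoded in gene clusters, and they pattern the nephron between its proximal end and the distal tubule. Pou3f3 (Brn1) is a POU-domain factor needed to form the loop of Henle, and Prox1 is a homeodomain factor best known from lymphatic endothelium. Foxq1 is a forkhead factor, and Hes1 is a basic helix-loop-helix repressor that Notch signalling switches on. The TAL carries salt through Slc12a1, and in its cells either Cldn10 or Cldn16 lines the junction, for sodium or for calcium and magnesium respectively.

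The genes lie on 4 chromosomes of GRCm39 in the GENCODE M39 annotation, all protein coding. Irx1 (chr13:72106040-72111848, minus strand) and Irx2 (chr13:72776906-72782317, plus strand) are members of 1 Iroquois cluster, and Irx3 (chr8:92525153-92528695, minus) and Irx5 (chr8:93084253-93102914, plus) of the other. Foxq1 is at chr13:31740117-31744959 (plus), Prox1 at chr1:189850232-189904637 (minus), Pou3f3 at chr1:42734085-42742336 (plus) and Hes1 at chr16:29882134-29886643 (plus).

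The sequences just before the start sites of Irx2, Irx3 and Prox1 are shown because, among the members the promoter table held, Irx2 and Irx3 differed in opposite directions between α and β nuclei and Prox1 differed between the libraries. They come from RefSeq on the build GRCm38.p6, are 250 bases long and are written 5′ to 3′ on the gene's strand. Capitals mark a match to TGGGAA, the core bound by the Notch partner Rbpj, or to TATAAA, on either strand.
Irx2, chr13:72628570-72628819, plus strand: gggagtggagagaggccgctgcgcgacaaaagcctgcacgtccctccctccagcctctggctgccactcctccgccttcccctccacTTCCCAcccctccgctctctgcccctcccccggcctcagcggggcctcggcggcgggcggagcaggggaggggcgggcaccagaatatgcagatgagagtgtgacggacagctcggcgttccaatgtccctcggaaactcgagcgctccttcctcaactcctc
Irx3, chr8:91801655-91801904, minus strand: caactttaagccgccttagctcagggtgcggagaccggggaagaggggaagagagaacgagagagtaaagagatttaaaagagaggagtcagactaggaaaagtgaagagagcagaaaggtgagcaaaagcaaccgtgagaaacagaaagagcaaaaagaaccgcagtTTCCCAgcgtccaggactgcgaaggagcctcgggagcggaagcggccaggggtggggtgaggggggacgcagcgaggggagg
Prox1, upstream start, chr1:190170828-190171077, minus strand: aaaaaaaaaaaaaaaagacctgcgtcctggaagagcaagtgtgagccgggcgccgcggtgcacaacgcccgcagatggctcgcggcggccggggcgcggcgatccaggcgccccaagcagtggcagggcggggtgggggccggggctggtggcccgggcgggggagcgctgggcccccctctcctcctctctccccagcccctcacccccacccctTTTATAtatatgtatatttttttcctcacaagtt
The search covered both strands of windows that ran 50 bases further, past the start site. Beside TGGGAA it looked for TATAAA, the TATA box, for ACANNTGT, a palindrome bound by Iroquois factors, and for the E-box CACGTG, which helix-loop-helix factors bind. No member's window held either of the last pair. No window held more than 1 match, so no matches overlapped. Irx2 held TGGGAA on the opposite strand 163 bases before the start and Irx3 held it on the opposite strand 82 bases before. At the upstream start of Prox1, TATAAA lay on the opposite strand 34 bases before. At its second start TGGGAA lay on the opposite strand 240 bases before. Pou3f3 held TGGGAA 45 bases before its start. Of the 32851 RefSeq promoter windows of this length, 25.6% held TGGGAA, 13.6% TATAAA, 7.38% ACANNTGT and 7.15% CACGTG. GC content was 69.0% for Irx2, 56.0% for Irx3, 64.3% for the upstream start of Prox1 and 60.3% for Pou3f3, beside a median of 52.7% over all windows. A TGGGAA match thus stood at Irx2 and at Irx3, whose levels differed in opposite directions, and such a match is a description of the letters only. The table held 4 of the 8 members. Irx1, Irx5, Foxq1 and Hes1 are named only.

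Classes were cut from gate genes that include no member. A barcode counted as TAL with at least 10 Slc12a1 counts, as macula densa with at least 3 counts of Nos1 and Pappa2 together, otherwise as β with at least 2 counts of Tmem52b, otherwise as γ with at least 2 counts of Tmem207 and Gpc5 together, and otherwise as α. The cortex library held 5442 barcodes and 16457300 counts, of which 5218 barcodes were TAL (653 macula densa, 1493 β, 248 γ, 2824 α). The medulla library held 8121 barcodes and 20947211 counts, of which 7967 were TAL (78 macula densa, 571 β, 3542 γ, 3776 α). Median counts per nucleus ran from 1883 in cortical macula densa to 2780 in medullary β nuclei, and 0 barcodes were shared by the libraries. Many nuclei lay at the edge of a class. In the cortex 331 of the β nuclei stood at the threshold and 425 nuclei were 1 count below it, and for γ these were 73 and 248. In the medulla they were 205 and 370 for β and 501 and 748 for γ.

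Genes outside the gates were used to check the class names. Kcnj10, a basolateral potassium channel gene, stood at 139 CPM in cortical β and 17.8 CPM in cortical α nuclei, and at 170 and 13.2 CPM in the medulla. Cldn16 stood at 188 against 101 CPM in cortical β and α nuclei and at 250 against 60.2 CPM in the medulla. Medullary γ nuclei had Kcnj10 (109 CPM) together with Cldn10 (211 CPM) and little Cldn16 (55.0 CPM), in keeping with what its name stands for. Cortical γ nuclei did not separate in this way, since Cldn16 (153 CPM) and Cldn10 (156 CPM) were alike there and Kcnj10 was 144 CPM. The cortical γ class is therefore only what its gate says. The β class also held counts of Slc12a3, the cotransporter gene of the distal convoluted tubule, at 263 CPM in the cortex and 148 CPM in the medulla, against 61.1 and 2.45 CPM in α nuclei. All 14 genes of a proximal tubule list were found in every cortical class, with summed levels of 3124 (macula densa), 5318 (β), 5760 (γ) and 4290 CPM (α). In the medulla the summed levels lay between 867 and 1237 CPM, with Slc22a8 and Hnf4a at 0 in macula densa. The share of nuclei with at least 5 counts of that list was 9.04% in macula densa, 24.9% in β, 25.4% in γ and 18.2% in α nuclei of the cortex, and between 2.56% and 6.13% in the medulla.

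Irx1 and Irx2 shared 1 pattern, high in macula densa, lower in α and lowest in β nuclei. Irx1 was 116 CPM (95% interval 100 to 133) in cortical macula densa, 76.1 (70.1 to 82.4) in α, 17.0 (9.28 to 28.5) in γ and 10.7 (8.09 to 13.9) in β nuclei. In the medulla Irx1 was 163 (107 to 237), 68.7 (63.5 to 74.2), 28.9 (25.5 to 32.7) and 6.26 (3.13 to 11.2) CPM in the same order of classes. The order of the 4 classes was thus the same in both libraries, and the macula densa, α and β intervals did not overlap within a library.

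Irx2 was 181 CPM (161 to 202) in cortical macula densa, 111 (104 to 119) in α, 29.1 (18.6 to 43.3) in γ and 20.5 (16.8 to 24.7) in β nuclei. In the medulla it was 163 (107 to 237), 80.0 (74.3 to 85.9), 32.1 (28.5 to 36.0) and 13.1 (8.30 to 19.6) CPM. Among the 8 combinations of class and library, ranked by level, neighbours whose ratio had an interval without 1 were few. For Irx1 they were cortical macula densa over cortical α (1.52, 1.29 to 1.79) and medullary α over medullary γ (2.37, 2.05 to 2.75). For Irx2 they were cortical over medullary α (1.39, 1.26 to 1.54) and medullary α over medullary γ (2.49, 2.17 to 2.86). The remaining neighbours of either gene were not separated by counting error.

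**Figure D1:**
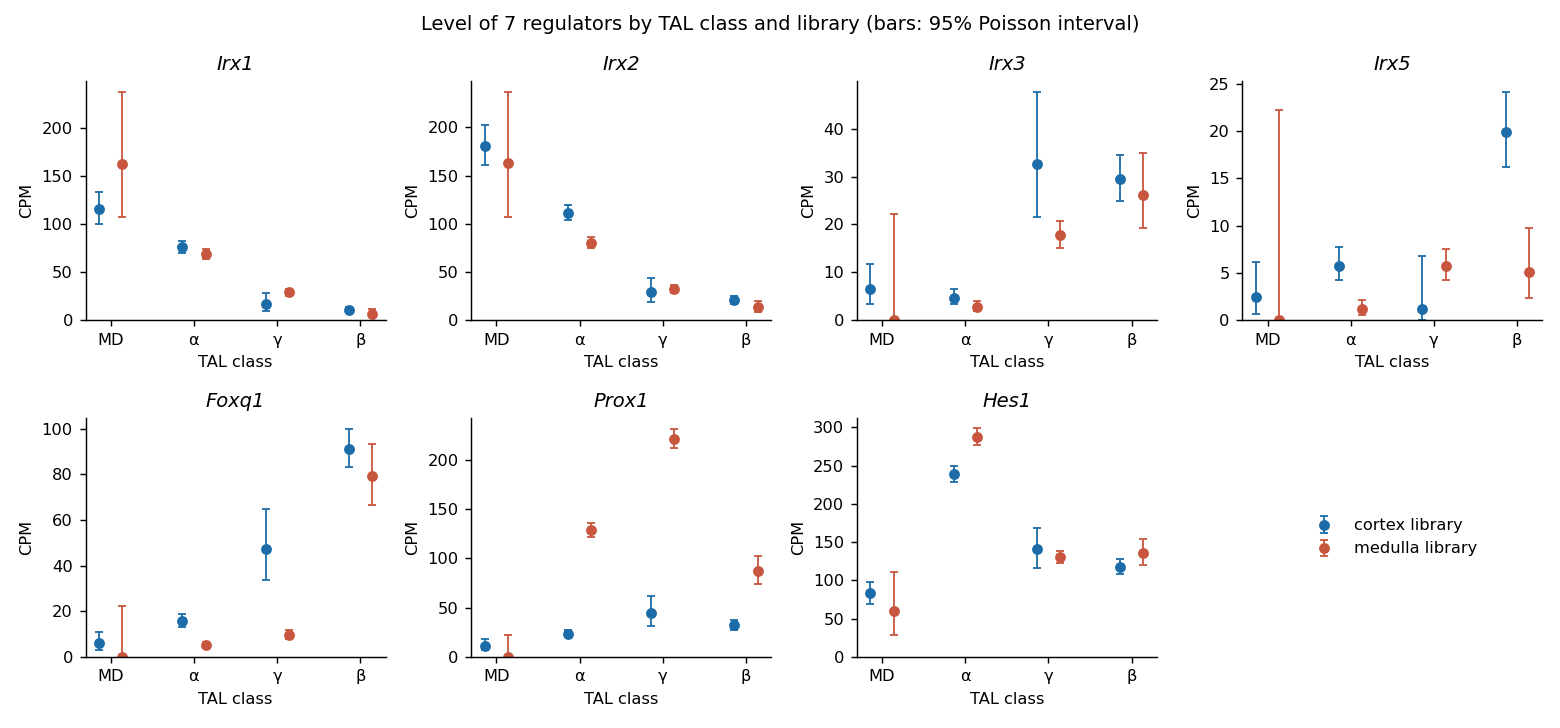
CPM (y axis, from 0) of 7 members in the 4 TAL classes (x axis, MD for macula densa) of the cortex library (blue) and the medulla library (red), with points for the summed level and bars for the 95% Poisson interval. Irx1 and Irx2 fall from left to right, Irx3 and Foxq1 lie higher at the right, and the medullary Prox1 points of α (129 CPM), γ (221) and β nuclei (87.7) stand above all cortical ones (11.4 to 44.8).

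Irx3 and Irx5 lay on the other side. Irx3 was 29.5 CPM (25 to 34.5) in cortical β and 32.7 (21.6 to 47.6) in cortical γ nuclei, against 4.65 (3.27 to 6.40) in α and 6.60 (3.29 to 11.8) in macula densa. In the medulla Irx3 was 26.2 (19.2 to 34.9) in β and 17.8 (15.1 to 20.7) in γ nuclei, 2.77 (1.81 to 4.06) in α nuclei, and had 0 counts in macula densa. Both β and γ intervals lay above the α interval in each library. The 3 highest combinations were cortical γ, cortical β and medullary β, whose neighbours did not differ beyond counting error, while medullary β exceeded medullary γ by 1.47 (1.04 to 2.06).

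Irx5 was 19.9 CPM (16.3 to 24.1) in cortical β nuclei and 5.78 (4.23 to 7.70) in cortical α nuclei, with 4 counts in macula densa and 1 count in γ nuclei. In the medulla it was 5.74 (4.29 to 7.53) in γ, 5.12 (2.34 to 9.73) in β and 1.17 (0.585 to 2.10) in α nuclei, and had 0 counts in macula densa. Cortical β nuclei thus held the highest level, 3.44 times (2.41 to 4.99) the next, and the other 7 combinations did not separate from their neighbours. The upper limit that 0 counts (3 counts) allow in medullary macula densa is 18.1 CPM, above the level of Irx5 in the other medullary classes, so nothing about Irx5 can be read there.

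The balance between the clusters can be read from the counts of the 4 Iroquois genes, without scaling for length, as a comparison between classes only. Irx1 and Irx2 gave 97.1% of these counts (95.2 to 98.3) in cortical macula densa and 94.7% (93.5 to 95.8) in α nuclei, but 57.6% (44.8 to 69.7) in γ and 38.7% (34.0 to 43.6) in β nuclei. In the medulla they gave 100% (93.4 to 100), 97.4% (96.5 to 98.2), 72.2% (68.9 to 75.3) and 38.2% (28.1 to 49.1). The β value was alike in both libraries, and medullary γ nuclei lay between α and β. Many of these β and γ counts were not told apart from background, as given below. In the cortex this holds for Irx1 and Irx3 in β and Irx3 in γ nuclei. In the medulla it holds for Irx1, Irx2 and Irx5 in β and Irx1, Irx3 and Irx5 in γ nuclei. The β and γ shares therefore describe the counts only. In cortical β nuclei 188 had a count of Irx3 or Irx5 only, 95 of Irx1 or Irx2 only and 15 of both pairs, where the product of the shares gives 15.0. In cortical α nuclei 15 had both pairs, beside 24.7 from the product, and in medullary γ nuclei 14, beside 25.2. Of cortical β nuclei 80.0% had neither pair, so these counts per nucleus are sparse and the numbers of nuclei with both are small.

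**Figure D2:**
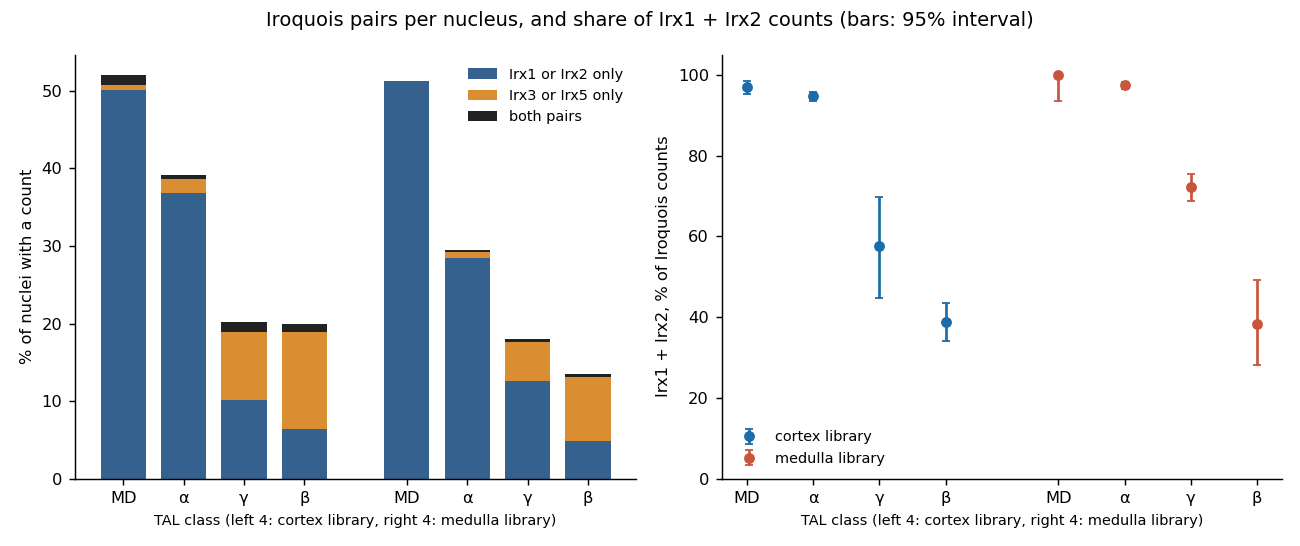
Left, percent of nuclei (y axis) with a count of Irx1 or Irx2 only, of Irx3 or Irx5 only, or of both pairs, stacked for each TAL class in the cortex library and then the medulla library. Right, Irx1 and Irx2 as a percent of all counts of Irx1, Irx2, Irx3 and Irx5 with 95% binomial intervals, which is above 94% in macula densa and α nuclei and near 38% in β nuclei of both libraries.

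Beside these levels stand the barcodes that count for background. Among 93 cortical proximal tubule barcodes with at most 2 Slc12a1 counts (median 3423 counts), 8.60% (3.79 to 16.2) had a count of Irx3, and among 100 medullary ones (median 4571 counts) 4.00% did. The share of nuclei with an Irx3 count was 8.84% (7.45 to 10.4) in cortical β and 9.68% in cortical γ nuclei, inside the interval of those barcodes. The Irx3 level of the cortical proximal tubule barcodes was 21.3 CPM (9.73 to 40.4), an interval that holds the cortical β and γ levels. Irx3 in cortical β and γ nuclei was thus not told apart from background. The share with an Irx3 count was 1.24% in α nuclei and 1.53% in macula densa of the same library, with median depths of 2425 and 1883 counts. In near-empty barcodes of 10 to 100 counts, which hold mostly free RNA, Irx3 stood at 34.9 CPM in the cortex and 26.4 CPM in the medulla, about the level of β nuclei and above that of α nuclei. Foxq1 stood there at 49.3 and 19.8 CPM, below β nuclei. The true part of free RNA in these levels is not known, and an assumed 10% was subtracted in 1 of the alternative settings. Irx5 was found in 5.36% (4.27 to 6.62) of cortical β nuclei and in 0 of the 93 proximal tubule barcodes, where the exact interval reaches 3.89%. Irx1 was found in 26.0% of cortical macula densa and 18.5% of α nuclei against 1.08% of proximal tubule barcodes. Those barcodes held Irx1 at 2.36 CPM (0.0599 to 13.2), an interval that holds the level of cortical β nuclei (10.7 CPM). In the medulla the proximal tubule barcodes had Irx1 in 9% (4.2 to 16.4), beside 6.44% of γ and 1.58% of β nuclei, but they were deeper. Thinned to 1000 counts the shares were 2.77% of γ nuclei, 0.350% of β nuclei and 2 of the 100 barcodes, and the CPM of these barcodes was 19.5 (8.90 to 36.9), an interval that holds the γ level. Irx1 in medullary β and γ nuclei was thus not told apart from background. In the cortex, after thinning, Irx1 was found in 15.2% of cortical macula densa, 7.58% of α and 0.804% of β nuclei, and Irx3 in 0.306%, 0.390% and 3.22%. Thinned cortical proximal tubule barcodes had Irx3 in 2 of 93 (2.15%).

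Some, but not all, groups of nuclei that had a gene against the pattern of their class were deeper than the rest of it. The 42 cortical β nuclei with Irx1 had a median of 5024 counts, against 2644 in the other 1451, and 50% of them held at least 5 proximal tubule counts, against 24.2%. The 10 cortical macula densa nuclei with Irx3 had a median of 7966 counts against 1874, and 9 of 10 held at least 5 proximal tubule counts, against 7.78% of the others. In cortical α nuclei depth differed little, with medians of 2583 counts with and 2424 without Irx3, 2428.5 and 2425 for Irx5, and 2369.5 and 2428.5 for Foxq1. The share with at least 5 proximal tubule counts did differ there for Irx3 (40% with and 17.9% without) and Foxq1 (27.4% and 17.8%). For Irx5 it was 19.4% and 18.2%. In an alternative setting, barcodes with at least 5 proximal tubule counts were left out. So were those with at least 3 counts of a distal convoluted tubule, collecting duct, endothelium, stroma, podocyte or immune list. These cutoffs took 31.8% of cortical and 13.4% of medullary TAL barcodes, and barcodes with fewer such counts stayed in. Without the barcodes left out, Irx3 in cortical macula densa had 1 count, a ratio of 0.0611 to the other classes beside 0.424 with them. Irx3 in cortical β to α nuclei was 10.2 beside 6.34.

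Foxq1 was highest in β nuclei of both libraries. It was 91.2 CPM (83.2 to 99.8) in cortical β nuclei, 47.3 (33.6 to 64.6) in γ, 15.6 (12.9 to 18.6) in α and 6.00 (2.88 to 11) in macula densa. In the medulla it was 79.1 (66.5 to 93.4) in β, 9.50 (7.60 to 11.7) in γ and 5.01 (3.68 to 6.66) in α nuclei, with 0 counts in macula densa. The β levels of the libraries did not differ beyond counting error (medulla to cortex 0.867, 0.713 to 1.05), whereas the γ level was 0.201 times (0.136 to 0.301) the cortical one in the medulla. The cortical γ class was not separated by its markers, as given above. A Foxq1 count was found in 23.8% (21.6 to 26.0) of cortical and 19.6% (16.4 to 23.1) of medullary β nuclei, 9.71% and 6.30% after thinning, beside 1.08% and 3.00% of proximal tubule barcodes. Barcodes past the cutoffs for other cell types, distal convoluted tubule included, were left out as above. The β to α ratio of Foxq1 was then 6.67 in the cortex and 16.5 in the medulla. Barcodes with fewer than 3 counts of the distal convoluted tubule list stayed in unless another list removed them.

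Prox1 was highest in medullary γ nuclei. It was 221 CPM (212 to 231) in medullary γ, 129 (122 to 136) in α and 87.7 (74.4 to 103) in β nuclei, with 0 counts in the 78 macula densa nuclei. In the cortex it was 44.8 (31.6 to 61.8) in γ, 31.9 (27.3 to 37.2) in β, 23.2 (20 to 26.8) in α nuclei and 11.4 (6.86 to 17.8) in macula densa. All 3 medullary levels above 0 exceeded every cortical level, and in the ranking only cortical γ and β, and macula densa of both libraries, did not separate from their neighbours. A Prox1 count was found in 36.6% (35.0 to 38.2) of medullary γ, 23.4% of α and 18.6% of β nuclei, 18.7%, 11.8% and 7.18% after thinning, against 0 of 100 proximal tubule barcodes. Near-empty medullary barcodes held Prox1 at 126 CPM (106 to 150), about the level of medullary α, above β and below γ nuclei. In near-empty cortical barcodes it was 20.04 CPM, below cortical γ, β and α nuclei and above macula densa. The true part of free RNA in the Prox1 levels is not known. Beside this stands a list of 6 markers of lymphatic endothelium, where Prox1 is also made. Ccl21a was at 0 in all 8 combinations, Lyve1 had 0 to 2 counts in each and Flt4 0 to 23. The whole list, with Pdpn, Reln and Mmrn1, summed to 21.9 CPM (198 counts) in medullary γ, 18.3 CPM (172 counts) in medullary α and 13.7 CPM in medullary β nuclei, and to between 17.5 and 25.8 CPM in the cortical classes. In medullary macula densa the list summed to 24.1 CPM on 4 counts. Any part of lymphatic endothelium in the Prox1 levels was not tested. Prox2, the other gene of its family, lay between 6.00 and 8.16 CPM in the cortical classes and between 4.55 and 6.96 CPM in medullary α, β and γ nuclei, so it did not follow the pattern of Prox1.

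Hes1 was 239 CPM (228 to 250) in cortical α nuclei, 141 (116 to 169) in γ, 118 (109 to 127) in β and 82.8 (69.5 to 97.8) in macula densa. In the medulla it was 288 (277 to 299), 130 (123 to 138), 136 (119 to 154) and 60.2 (28.9 to 111) CPM. Hes1 thus stood highest in α nuclei of each library with no overlap of intervals, and γ and β nuclei were alike. A Hes1 count was found in 35.8% of cortical and 37.8% of medullary α nuclei, against 8.60% and 6.00% of proximal tubule barcodes. In near-empty barcodes Hes1 stood at 162 CPM in the cortex and 205 CPM in the medulla. These levels were below α nuclei but above the γ, β and macula densa levels of the same library. A list of 13 immediate early genes, which mark RNA made in response to tissue handling, stands beside Hes1. Their summed level was 391 CPM in α, 348 in γ, 371 in β nuclei and 542 in macula densa of the cortex, and 250, 198, 337 and 572 CPM in the medulla. That sum was highest in macula densa, where Hes1 was lowest, and its part in the Hes1 values was not tested.

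Within each library α and β nuclei differed in most members. A gene was counted as past 2-fold if its CPM ratio was at least 2 either way and it had at least 50 counts over both groups. In the cortex 6 of the 7 members tested were past 2-fold between β and α nuclei, beside 3.16% of all 12244 genes tested, and in the medulla 5 of 6, beside 4.86% of 11129. The members were chosen with earlier results of these data known. This count and the later counts of members therefore describe the members and are no independent support. Irx3, Irx5 and Foxq1 were higher in cortical β nuclei, and Irx1, Irx2 and Hes1 lower. In the medulla Irx3 and Foxq1 were higher and the same 3 lower, while Irx5 had 9 and 11 counts, too few for the minimum, with a ratio of 4.37 (1.60 to 11.6).

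Irx1 was 7.10 times (5.40 to 9.52) higher in α than in β nuclei in the cortex and 11 times (6.09 to 22.1) in the medulla. Irx2 was 5.44 times (4.45 to 6.71) and 6.11 times (4.04 to 9.70) higher in α nuclei. Their intervals excluded 2-fold in both libraries. Irx3 was 6.34 times (4.40 to 9.34) higher in β than in α nuclei in the cortex and 9.45 times (5.72 to 15.9) in the medulla. Foxq1 was 5.86 times (4.80 to 7.20) and 15.8 times (11.3 to 22.5) higher in β nuclei. The size of these ratios depended on the thresholds of the classes and, for Irx3, on the allowance for free RNA. With all thresholds 1 count lower or higher, Irx3 was 9.85 or 3.81 times higher in cortical β nuclei, and Foxq1 was 10.1 or 4.58 times higher. With 10% ambient subtracted, the Irx3 ratio was 22.5 in the cortex and 181 in the medulla. The α nuclei had only 37 and 26 Irx3 counts before that subtraction, so the size of the Irx3 ratio is not settled. Irx3 in cortical β nuclei was also not told apart from background, as given above. Hes1 stood at 0.492 (0.449 to 0.539) of the α level in cortical β nuclei and at 0.473 (0.412 to 0.540) in medullary ones, close to the 2-fold line. Slc12a3 and the proximal tubule list were also higher in β nuclei, as given above. Without barcodes past the cutoffs for other cell types the members past 2-fold were again 6 in the cortex and 5 in the medulla.

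**Figure D3:**
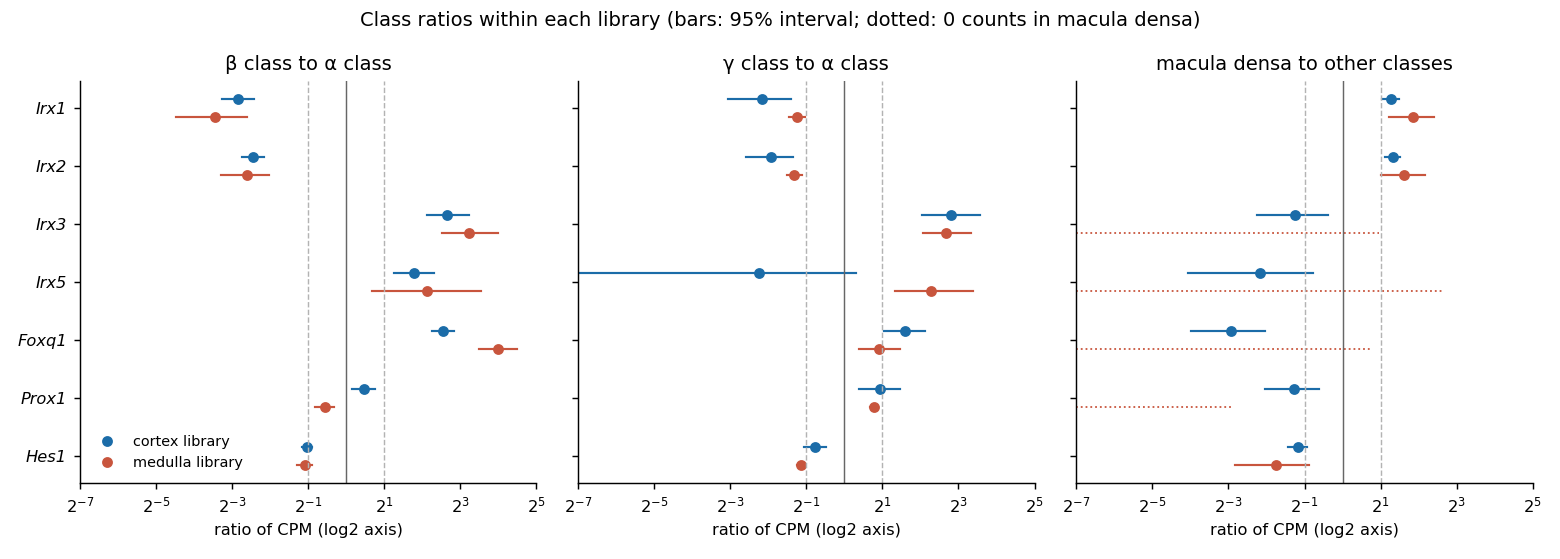
Ratios of CPM on a log2 axis for each member (β to α, γ to α, and macula densa to the other TAL classes) in the cortex library (blue) and the medulla library (red), with 95% intervals and dashed lines at 0.5 and 2. Irx1 and Irx2 lie left of 0.5 between β and α nuclei and right of 2 for macula densa, Irx3 and Foxq1 lie on the opposite sides in the cortex, and dotted marks stand for 0 counts in medullary macula densa.

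By level, medullary γ nuclei shared some of the β pattern, with limits from background given below. Against α nuclei 5 of the 7 members were past 2-fold, beside 2.49% of 12347 genes. Irx3 was 6.41 times (4.22 to 10.1) and Irx5 4.90 times (2.52 to 10.4) higher in γ nuclei. Irx1 (0.421, 0.364 to 0.487), Irx2 (0.402, 0.350 to 0.461) and Hes1 (0.452, 0.422 to 0.484) were lower. Foxq1 (1.90, 1.31 to 2.76) and Prox1 (1.72, 1.60 to 1.85) stayed inside 2-fold. Of the medullary γ nuclei 3436 of 3542 were medulla-type, as defined below, and of the α nuclei 2704 of 3776. Within medulla-type nuclei Irx1 was 0.522 (0.443 to 0.614), inside 2-fold, and Foxq1 2.01 (1.24 to 3.36), just past it. Irx2 (0.484), Irx3 (6.51), Irx5 (4.18) and Hes1 (0.481) stayed past 2-fold there, and Prox1 (1.39) inside it. Between medullary γ and β nuclei 4 of 7 members were past 2-fold, beside 6.72% of 11001 genes. Foxq1 was 8.33 times (6.32 to 11) higher in β nuclei, and Irx1 (4.62, 2.54 to 9.37), Irx2 (2.45, 1.60 to 3.93) and Prox1 (2.53, 2.14 to 3.00) were higher in γ nuclei. Irx3 (0.679, 0.487 to 0.964) and Hes1 (0.957, 0.832 to 1.10) were inside 2-fold. By these levels medullary γ and β nuclei differed in Foxq1, Irx1, Irx2 and Prox1 and were closer in Irx3 and Hes1. Irx1 in both classes was not told apart from background, as given above. Medullary proximal tubule barcodes held both Irx2 and Irx3 at 8.65 CPM (2.36 to 22.1). That interval holds Irx2 in β (13.1 CPM) and Irx3 in γ nuclei (17.8 CPM), but not Irx2 in γ nuclei (32.1 CPM). In near-empty medullary barcodes Irx2 was 67.9 CPM, above both classes. Medullary proximal tubule barcodes had 0 counts of Irx5, which allows up to 7.98 CPM, above Irx5 in γ (5.74 CPM) and β nuclei (5.12 CPM). Irx2 in β, Irx3 in γ and Irx5 in both classes were thus not told apart from background either. The Prox1 difference depended on the mix of nuclei. Within medulla-type nuclei, defined below, its γ to β ratio was 1.51 (1.25 to 1.86), inside 2-fold. Medullary β nuclei also held γ gate counts, with a median of 3 counts of Tmem207 and Gpc5 beside 0 in cortical β nuclei.

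In the cortical γ class, which its markers did not separate, 4 of 6 members tested were past 2-fold against α nuclei, beside 6.13% of 11145 genes. Irx3 was 7.04 times (4.13 to 11.9) and Foxq1 3.04 times (2.06 to 4.38) higher, and Irx1 (0.223, 0.121 to 0.377) and Irx2 (0.261, 0.166 to 0.391) were lower. The Irx3 level of this class was not told apart from background, as given above. Prox1 was 1.93 times (1.32 to 2.76) higher, and Irx5 had 1 count. With class thresholds 1 count lower, Foxq1 alone was past 2-fold with at least 50 counts there, and Irx3 was still 5.18 times higher on 15 and 18 counts.

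The macula densa, the sensor of tubular salt at the end of the TAL, is defined here by Nos1 and Pappa2. In the cortex all 7 members detected were past 2-fold against the other TAL classes together, beside 11.6% of 12789 genes. Irx1 was 2.40 times (2.03 to 2.82) and Irx2 2.49 times (2.18 to 2.83) higher. Irx3 (0.424, 0.209 to 0.774), Irx5 (0.223, 0.0599 to 0.582), Foxq1 (0.131, 0.0627 to 0.243), Prox1 (0.411, 0.245 to 0.650) and Hes1 (0.440, 0.368 to 0.523) were lower. The other classes include β and γ nuclei. Against α nuclei alone, among cortex-type nuclei as defined below, Irx1 was 1.58 times (1.29 to 1.92) and Irx2 1.64 times (1.40 to 1.92) higher, inside 2-fold. Foxq1 (0.212), Prox1 (0.437) and Hes1 (0.324) were still lower there, while the Irx3 and Irx5 intervals held 1. Most of the Irx3, Irx5 and Foxq1 counts of cortical macula densa lay in barcodes past the cutoffs for other cell types. Without these barcodes 1, 1 and 3 counts were left. In the medulla, with 78 nuclei, 7 of 7 were past 2-fold by the summed levels, beside 39.6% of 12641 genes, but 3 of the 7 were at 0 counts that set no bound, and nothing is read from this count. Irx1 was 3.58 times (2.35 to 5.25) and Irx2 3.09 times (2.02 to 4.52) higher, and Hes1 was lower (0.295, 0.142 to 0.544). Prox1 had 0 counts, at least 9.23-fold lower than in the other classes with 3 counts as the floor. The 0 counts of Irx3, Irx5 and Foxq1 set no bound as large as 1, so no fold is given.

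The bins of gate gene counts describe how the levels ran across the thresholds, and since the gates used these counts they add no support to the classes. Along cortical α, β and γ nuclei with 0, 1, 2, 3 to 4 and 5 or more counts of Tmem52b, Irx1 was 77.9, 28.8, 14.1, 12.9 and 7.20 CPM. Foxq1 was 10.6, 63.8, 78.9, 96.7 and 92.3 CPM over the same bins, and Irx3 4.55, 22.8, 27.3, 36.5 and 24.3 CPM. A single Tmem52b count thus already went with most of the difference, and those nuclei counted as α or γ here. In the medulla Foxq1 was 5.63, 34.3, 43.5, 92.8 and 104 CPM over these bins. Along medullary α and γ nuclei binned by Tmem207 and Gpc5 together, Irx1 was 73.6, 48.4, 57.9, 38.7 and 19.9 CPM and Irx3 1.72, 7.14, 6.81, 18.1 and 19.9 CPM. Prox1 was 118, 174, 187, 177 and 243 CPM, and Hes1 298, 245, 179, 178 and 104 CPM. For these 4 genes the first and last bins were the extremes, with uneven steps between.

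**Figure D4:**
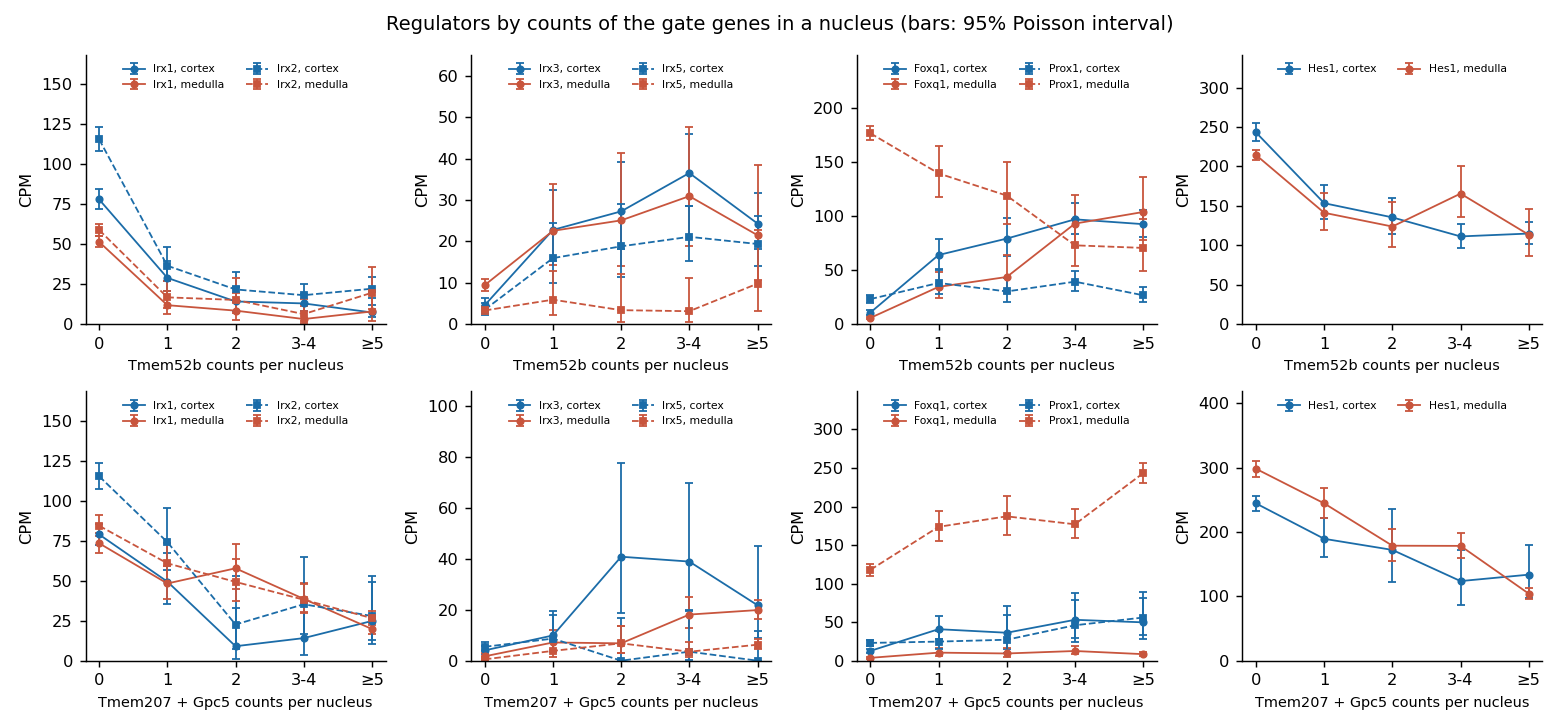
CPM of members (y axis) by the number of gate gene counts in a nucleus (x axis, 0, 1, 2, 3 to 4, and 5 or more), for Tmem52b over α, β and γ nuclei (top) and for Tmem207 and Gpc5 together over α and γ nuclei (bottom), in the cortex library (blue) and the medulla library (red) with 95% Poisson intervals. Cortical Irx1 runs from 77.9 to 7.20 CPM and cortical Foxq1 from 10.6 to 92.3 CPM along Tmem52b.

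Between the libraries Prox1 was higher in the medulla in α, β and γ nuclei. It was 5.54 times (4.74 to 6.50) higher in medullary than in cortical α nuclei, 2.74 times (2.19 to 3.44) in β and 4.94 times (3.57 to 7.03) in γ nuclei. In α nuclei 3 of 7 members were past 2-fold, beside 10.4% of 12585 genes, with Irx5 (0.203, 0.0949 to 0.398) and Foxq1 (0.322, 0.225 to 0.454) lower in the medulla. In β nuclei 2 of 7 were, beside 9.73% of 10489 genes, Prox1 and Irx5 (0.258, 0.115 to 0.508). Within cortex-type β nuclei, defined below, Prox1 was 23.3 CPM in the medulla library and 24.5 CPM in the cortex library. Within medulla-type β nuclei it was 149 and 53.1 CPM. In γ nuclei 3 of 7 members were past 2-fold, beside 15.4% of 10856 genes, namely Prox1, Foxq1 (0.201, 0.136 to 0.301) and Irx5. The Irx5 ratio of 4.74 (0.814 to 191) rests on 1 cortical count. The γ ratios set medullary γ nuclei against a cortical class that its markers did not separate, so they do not compare 1 cell type. In macula densa 0 of the 3 members tested were past 2-fold, beside 11.0% of 6272 genes. Irx1 was 1.41 times (0.903 to 2.11), Irx2 0.901 times (0.584 to 1.34) and Hes1 0.728 times the cortical level in medullary macula densa. Irx1 in α nuclei (0.903, 0.807 to 1.01) and Foxq1 in β nuclei (0.867, 0.713 to 1.05) had intervals that held 1. These are ratios of 1 library to 1 library.

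A comparison within a library does not set 1 library against the other, and each library held nuclei scored as cortical and as medullary. The study drew up 2 lists of 13 genes on these libraries, 1 for cortical and 1 for medullary TAL, and no member is among them. A nucleus was called medulla-type or cortex-type with at least 3 counts of 1 list and at least 2 times those of the other. As the lists were chosen on these data, they are not independent evidence of the direction. In the medulla library Prox1 was 163 CPM in medulla-type and 32.0 CPM in cortex-type α nuclei, a ratio of 5.09 (3.56 to 7.53). In the cortex library Prox1 was 67.1 and 15.9 CPM, a ratio of 4.23 (2.77 to 6.39). Prox1 was the only member past 2-fold in either library, 1 of 4 tested beside 9.72% of 10051 genes in the medulla and 1 of 5 beside 10.6% of 9343 genes in the cortex. Irx1 was 0.614 times (0.486 to 0.783) and Irx2 0.543 times (0.442 to 0.670) as high in medulla-type α nuclei of the medulla library. In the cortex library these were 0.603 (0.401 to 0.875) and 0.574 (0.410 to 0.783). Hes1 was nearly level, at 0.900 and 0.995.

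The order of Prox1 between β and α nuclei was not the same in the libraries. Its β to α ratio was 1.38 (1.11 to 1.70) in the cortex and 0.681 (0.572 to 0.806) in the medulla. Of the medullary β nuclei 170 were cortex-type and 224 medulla-type, while of the medullary α nuclei 372 and 2704 were. Within medulla-type nuclei of the medulla library the ratio was 0.918 (0.746 to 1.12), and within cortex-type nuclei there it was 0.729 (0.331 to 1.49), so both intervals held 1. In the cortex library it was 1.54 (1.10 to 2.17) within cortex-type nuclei and 0.792 (0.396 to 1.49) within medulla-type nuclei. Prox1 in γ nuclei stayed above α within medulla-type nuclei of the medulla library, at 1.39 (1.29 to 1.5). Irx5 in β nuclei went the other way along this axis, with 29.9 CPM in cortex-type, 5.49 in neither and 0 counts in medulla-type nuclei of the cortex library. That 0 comes from 53 nuclei, too few to tell it apart from the level in neither. In the medulla library Irx5 was 12.7, 5.33 and 0 CPM. These levels rest on 9 counts in all, 6 of them in cortex-type nuclei, so the medulla library adds little to this trend. Irx1, Irx2, Irx3 and Foxq1 kept their order between β and α nuclei in both types and both libraries. These splits within types were chosen after the values were seen.

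**Figure D5:**
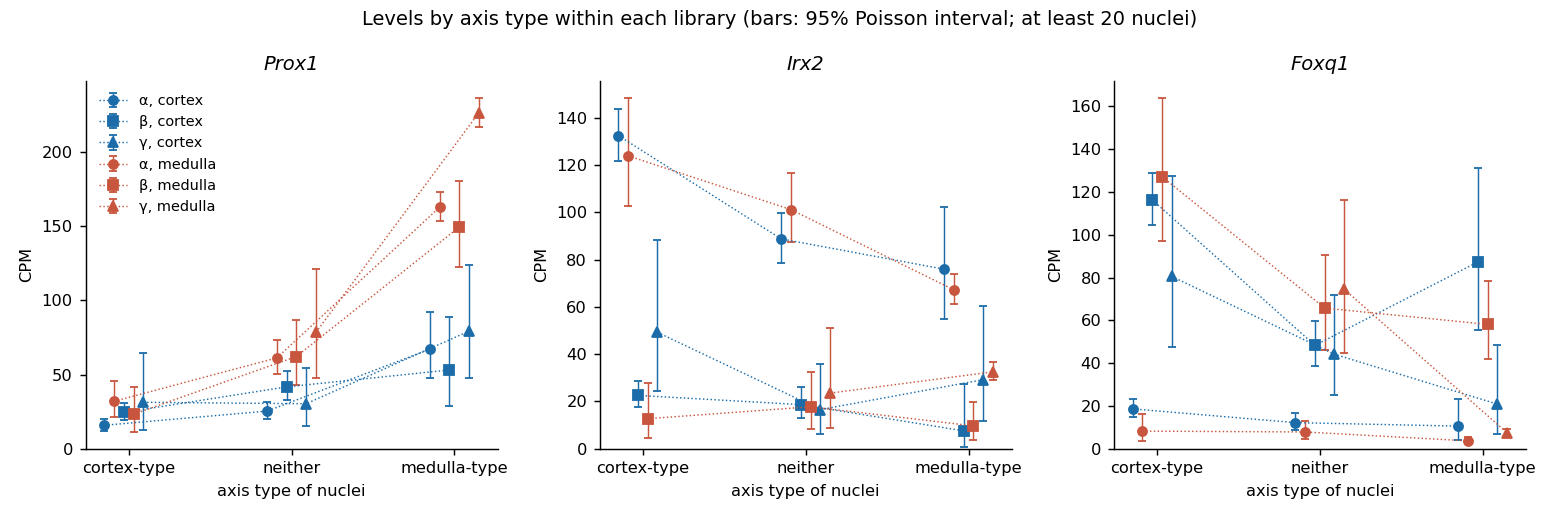
CPM (y axis, from 0) of Prox1, Irx2 and Foxq1 in cortex-type, neither and medulla-type nuclei (x axis) of the α, β and γ classes, in the cortex library (blue) and the medulla library (red), with 95% Poisson intervals and groups of at least 20 nuclei. Prox1 is highest in medulla-type nuclei of each class in both libraries, from 53.1 CPM in cortical β to 226 CPM in medullary γ nuclei.

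Hes1 is a target of Notch, so 35 genes of the Notch pathway, chosen by function, were read over the same classes. Among the 20 tested between cortical β and α nuclei 1 was higher and 1 lower past 2-fold, Jag1 and Notch3, beside 3.16% of all genes. The list median ratio was 1.08, beside 1.01 for all genes. Among the 18 tested in the medulla the same 2 genes were past 2-fold in the same directions, beside 4.86% of all genes, with a median of 1.02 beside 0.986. Most of the list thus stayed inside 2-fold, but the share past it was larger than over all genes, on 2 genes. Jag1, a Notch ligand, was 55.8 CPM in β, 58.2 in γ, 9.29 in α nuclei and 3.60 in macula densa of the cortex. In the medulla it was 82.0, 50.6 and 6.50 CPM, with 0 counts in macula densa. Jag1 was therefore low where Hes1 was high in α nuclei, and both were low in macula densa. The receptor gene Notch1 was 49.8 CPM in cortical macula densa and between 12.1 and 15.9 CPM in the other cortical classes. Notch2, the other main receptor gene of the tubule, lay between 72.3 and 110 CPM in all 8 combinations. Rbpj, the DNA-binding partner of Notch, was 137 CPM in cortical macula densa and 79.4 to 90.9 CPM in the other cortical classes. Hes5 and Hey1, other target genes, had 0 counts. In γ against α nuclei Jag1 (higher) and Notch3 (lower) were past 2-fold in the cortex, of 18 tested, beside 6.13% of all genes. In the medulla Jag1 (higher) and Maml2 (lower) were, of 19, beside 2.49%. In cortical macula densa Notch1 and Numbl were higher and Jag1 lower, of 20, beside 11.6% of all genes. In medullary macula densa 4 were higher and 4 lower of 20, a share like the 39.6% of all genes there. Between medullary γ and β nuclei Maml2 and Maml3 were lower in γ nuclei, of 16, beside 6.72%.

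Pou3f3 had 0 counts in both filtered and both unfiltered matrices, as did 5045 of the 32227 genes listed (15.7%). In TAL nuclei 0 counts allow a level of up to 0.320 CPM in medullary α and 0.377 CPM in cortical α nuclei with 3 counts as the floor. The neighbouring noncoding genes were not at 0. Pantr1, antisense to Pou3f3 and overlapping 500 of its bases, had 5756 counts, from 77.6 CPM in cortical β to 317 CPM in cortical macula densa. Gm20646, on the same strand and overlapping all 8252 bases of Pou3f3, had 7771 counts and lay between 185 and 232 CPM in all classes of both libraries. Pantr2, antisense over the same 8252 bases, had 1067 counts and ran from 17.0 to 60.2 CPM. How reads shared by overlapping genes were assigned, and whether strand was used, is not given in the sources used here. Their part in the 0 counts of Pou3f3 was not tested, and no absence of Pou3f3 RNA can be read from them. Of its family, Pou3f1 had 2 counts in cortical and 5 in medullary TAL nuclei, and Pou3f2 and Pou3f4 had 0. Of the remaining Iroquois genes, Irx4 had 0 counts and Irx6 had 1 in each library.

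Noncoding genes near the other members followed them in part. Gm40999, a noncoding gene 1029 bases from Irx1, was 230 CPM in macula densa, 110 in α, 19.4 in γ and 17.4 in β nuclei of the cortex. In the medulla it was 367, 92.2, 35.3 and 6.26 CPM. Irx3os was 5.35 CPM in cortical β against 1.00 in α nuclei, and Crnde, antisense to Irx5, was 8.41 against 2.13 CPM. Prox1os, antisense to Prox1, was 15.6 CPM in medullary γ nuclei and between 0.600 and 1.21 CPM in the cortical classes. Where strand was not used, reads of a gene and its antisense partner cannot be told apart.

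The genes whose levels over the 8 combinations were most like each member were taken by Pearson correlation of log2(CPM + 1) over 12764 genes with at least 100 counts. These correlations are descriptions over 8 points that share 2 libraries and their depths. For Irx1 they were Gm40999 (0.992), Pdlim5 (0.989) and Irx2 (0.984), and for Irx2 they were Fmnl3 (0.989), Irx1 (0.984) and Gm40999 (0.982). For Irx3 they were Gabarapl1 (0.984), Atp2b2 (0.982) and Zfp503 (0.969). Foxq1 was most like Slc34a2 (0.993), Nabp1 (0.983) and Cnnm2 (0.981). Prox1 was most like Bdp1 (0.990), Fis1 (0.990) and Zfp397 (0.989), Irx5 like Wscd2 (0.944), Rad51d (0.934) and Epm2a (0.930), and Hes1 like Snrnp70 (0.971), Noct (0.959) and Lrrfip1 (0.955). Among the members Irx3 and Foxq1 had 0.917, Irx1 and Foxq1 −0.906, and Irx1 and Irx3 −0.883.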

How the data were processed

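Nuclei of mouse kidney were sorted for a GFP tag and profiled as single nuclei with PIPseq, in 1 library of cortex and 1 of medulla. Per the study's methods and the labels, the authors aligned reads to GRCm39 and counted them with PIPseeker; bcl2fastq and Seurat 4.4.0 are also in the submitters' processing notes. The deposited values are raw counts per gene and barcode, before the doublet removal and ambient correction the authors applied later. The annotation release and the use of strand are not given in the sources used here.

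From these counts barcodes were classed by the thresholds in the report (Python 3.11.15, numpy 2.4.6, scipy 1.17.1, pandas 2.3.3, scanpy 1.11.5, matplotlib 3.10.9). Counts were summed per class and scaled to CPM. Intervals (95%) are exact Poisson for CPM, exact binomial for shares, and conditional binomial for ratios. They cover counting error only. No test was run, as each region is 1 library. Counts per barcode had medians of 2427 (cortex) and 2430 (medulla). CPM is not scaled to gene length, so levels of different genes are not compared. Proximal tubule barcodes for background had at least 10 counts of the proximal tubule list and at most 2 of Slc12a1. The genes named are the members, their family genes, genes of the Notch list past 2-fold, the 3 genes most like each member, and annotated genes within 100 kb; Notch2, Rbpj, Hes5 and Hey1 were named for their role after their values were seen. The members and lists were chosen with earlier results of these data known. Alternatives were other Slc12a1 minimums (5, 20), class thresholds 1 higher or lower, a quality filter, and Scrublet doublets removed. In another, barcodes past the cutoffs for other cell types given above were left out. The rest were 2 other scalings, the mean over nuclei, 10% ambient subtracted, and a minimum of 20 counts. The doublet caller marked 6.21% of cortical barcodes and 0.0246% of medullary ones; as the latter had not worked, the highest 5% of scores were taken there. The ratio calculation was checked on simulated data.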

Additional observations from a re-analysis of the deposited data

Results flagged for a closer look

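The β to α ratio of Prox1 lay on opposite sides of 1 in the libraries, at 1.38 in the cortex and 0.681 in the medulla. The difference between these ratios was not tested, and each region is 1 library.

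The members were also found outside the nuclei analysed, in barcodes with 10 to 100 counts that the authors' filter had left out (112326 barcodes with 1946520 counts in the cortex and 67088 with 1059824 in the medulla). Levels there were 45.2 CPM (cortex) and 57.6 CPM (medulla) for Irx1, 94.0 and 67.9 for Irx2, and 34.9 and 26.4 for Irx3. Foxq1 was 49.3 and 19.8 CPM, Prox1 20.04 and 126 CPM, and Hes1 162 and 205 CPM. Irx5 was 7.19 CPM in the cortex. The level that 3 counts give in these barcodes is 1.54 CPM in the cortex and 2.83 CPM in the medulla. Irx3 in these barcodes was above its level in α nuclei of the same library (4.65 and 2.77 CPM), and Prox1 differed between the libraries there as it did in the nuclei.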

How the results depend on the processing

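Of 156 counts of members past 2-fold recomputed under the alternative settings 150 stayed within 1.5 times the main count. With class thresholds 1 lower, 1 member was past 2-fold between cortical γ and α nuclei in place of 4, while Irx3, at 5.18, had fallen under the minimum of 50 counts. Between medulla-type and cortex-type α nuclei the count became 2 in place of 1 in the medulla library (class thresholds 1 higher, minimum of 20 counts) and 2 in the cortex library (the same alternatives and 10% ambient subtracted). Of 999 recomputed ratios 926 moved by less than their interval, 72 moved more, and 1 reversed, Irx5 in medullary macula densa against the other classes, at 1.40 with class thresholds 1 lower, which rests on 1 count. This total includes settings that changed little. The quality filter removed 0 cortical and 1 medullary barcode, and it, the Slc12a1 minimums and the 2 other scalings moved no ratio. With class thresholds 1 lower 22 of 91 ratios moved, and with 10% ambient subtracted 18 of 90. Without barcodes past the cutoffs for other cell types 16 of 90 moved. Of the 48 ratios past 2-fold 40 stayed there under every one of these settings. In an alternative added after seeing the data, medulla-type nuclei only, the β to α ratio of Irx5 in the cortex was 0, from 0 and 1 counts. Of 448 recomputed shares 89 moved, 51 of them on thinning to 1000 counts. The β to α ratio of Prox1 in the medulla ran from 0.533 to 0.896 with class thresholds 1 higher and 1 lower. No paired analysis was possible because each region has 1 library and no test was run. With 78 nuclei, medullary macula densa limits what can be read for the low members.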
